A study of Mus musculus with 2 samples.

Results

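The genes described here are 9 guidance genes, chosen by name: the secreted ligands Sema3a, Sema3c and Cxcl12, and the receptors Nrp1, Nrp2, Plxna2, Plxna4, Plxnd1 and Cxcr4. All 9 were present in both deposited matrices, among 16388 shared genes. The matrices hold UMI counts (unique molecular identifiers, each standing for 1 captured RNA molecule) of single second heart field cells labelled Osr1+. The second heart field is the mesoderm behind the heart tube from which the outflow tract, right ventricle and parts of the atria grow. All embryos were wild-type (WT) mice, and no gene was manipulated. At E10.5 the dissected positions were posterior (560 cells), middle (331), outflow tract (31) and anterior (45), and at E9.5 they were posterior (418 cells), middle (61) and anterior (54). Each stage was 1 sample, so a position had 1 library at each stage and the outflow tract 1 library in all.

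Class 3 semaphorins are secreted proteins that steer migrating cells and axons. Neuropilins (Nrp1, Nrp2) bind them, and A-type plexins or Plxnd1 pass the signal into the cell. In mouse embryos Sema3c from the outflow tract attracts cardiac neural crest cells, which help to divide the outflow vessel, and Plxna2 is among the receptors of those cells. Cxcl12 is a chemokine that signals through Cxcr4 and guides neural crest, endothelial and other migrating cells.

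The E9.5 cells were sequenced far deeper, with a median of 30208 UMIs per cell, against 5371 at E10.5, where each library held 196599 to 3449001 UMIs in all and the E9.5 libraries 1296638 to 13650408. Within E10.5, 1 cell barcode occurred in more than 1 library, and within E9.5 none did. No cell lacked an Osr1 UMI, and the labels do not say how Osr1+ cells were chosen. Markers of the named tissue were present but uneven: Isl1, a defining gene of the second heart field, stood at 124 CPM (counts scaled to a common library total) in the E10.5 posterior and 11.8 CPM in the E10.5 anterior library, and Tbx1, another, at 2.03 and 59.1 CPM. The 11 second heart field markers together stood at 665, 471, 361 and 268 CPM in the E10.5 posterior, middle, outflow tract and anterior libraries. At E9.5 they stood at 673, 513 and 684 CPM in the posterior, middle and anterior ones. These sums include Osr1, which every cell carried, at 317, 251, 168 and 185 CPM at E10.5 and 168, 122 and 71.7 CPM at E9.5. In the E10.5 anterior library Hand2, Gata4, Gata6, Nkx2-5, Tbx5, Fgf10 and Fgf8 had 0 counts. Libraries also differed in other cells: the summed level of 9 epithelial markers ran from 1546 CPM in the E9.5 anterior library to 23.6 CPM in the E10.5 anterior one, while the 4 leukocyte markers reached at most 3.19 CPM. The neural crest genes Sox10 and Foxd3 had at most 5 and 14 counts in any library, and 8 neural crest markers together reached 62.7 to 78.0 CPM at E10.5 and 22.0 to 34.7 CPM at E9.5. Levels below are CPM of the counts summed over a library, with exact 95% Poisson intervals that cover counting error only, and a summed level cannot tell more cells with a gene from more RNA per cell.

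Promoter sequences of 8 of the 9 genes were found in RefSeq (GRCm38.p6; 250 bases before to 50 after RefSeq's gene start). For Sema3a, Sema3c, Nrp1 and Plxna2 that start lies downstream of the GENCODE gene start given below, so these windows lie inside the GENCODE gene. Shown are 4 of them, from the genes whose levels differed most between cell groups or positions below. Capitals mark matches on either strand to a GATA word, to the T-box half-site AGGTGT or to the TATA word TATAAA. The GATA words searched were AGATAA and its variant with G as the last base, AGATAG, and likewise with T as the first base TGATAA and also the word TGATAG. The matches in Cxcr4 are the same word read on both strands and overlap.
Sema3c, chr5:17574566-17574865, plus strand: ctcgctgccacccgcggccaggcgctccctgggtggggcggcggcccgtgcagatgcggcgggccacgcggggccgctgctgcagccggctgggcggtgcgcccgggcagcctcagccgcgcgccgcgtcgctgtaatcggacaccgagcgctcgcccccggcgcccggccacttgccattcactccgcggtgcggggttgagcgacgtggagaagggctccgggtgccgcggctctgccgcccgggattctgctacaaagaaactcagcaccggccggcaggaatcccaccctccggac
Cxcr4, chr1:128592250-128592549, minus strand: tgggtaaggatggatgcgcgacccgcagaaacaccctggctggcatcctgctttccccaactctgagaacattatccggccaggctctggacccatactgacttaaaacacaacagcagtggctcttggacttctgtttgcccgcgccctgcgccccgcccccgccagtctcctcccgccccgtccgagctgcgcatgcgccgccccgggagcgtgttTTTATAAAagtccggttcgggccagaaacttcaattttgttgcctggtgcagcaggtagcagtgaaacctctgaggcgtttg
Cxcl12, chr6:117168285-117168584, plus strand: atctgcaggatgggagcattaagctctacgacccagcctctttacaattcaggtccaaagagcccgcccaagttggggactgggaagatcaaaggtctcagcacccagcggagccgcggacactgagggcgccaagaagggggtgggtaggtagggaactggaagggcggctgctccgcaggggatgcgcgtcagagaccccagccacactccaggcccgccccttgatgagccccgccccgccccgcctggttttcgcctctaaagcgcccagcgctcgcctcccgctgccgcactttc
Plxna2, chr1:194619579-194619878, plus strand: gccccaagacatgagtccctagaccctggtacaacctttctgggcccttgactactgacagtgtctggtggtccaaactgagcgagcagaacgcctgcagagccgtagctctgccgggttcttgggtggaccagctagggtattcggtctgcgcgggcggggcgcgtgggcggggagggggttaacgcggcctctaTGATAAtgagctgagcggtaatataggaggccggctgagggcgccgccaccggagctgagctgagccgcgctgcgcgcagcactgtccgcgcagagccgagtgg
The Sema3c window is dense in CG dinucleotides, with 42 against a median of 7 over 32851 promoters, and holds none of the 3 motifs. Plxna2 carries 1 GATA word, which 29.8% of all promoters of this length do. Cxcr4 carries TATAAA just before its start, as do 13.6% of promoters anywhere in the window. AGGTGT (13.7% of promoters) was in none of the 8 windows. These are letter matches only.

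Among the ligands, Cxcl12 (chromosome 6, 117168535 to 117181367, GRCm38, GENCODE vM21) showed the widest range across positions. At E10.5 it stood at 49.3 CPM in the posterior library, 126 in the middle, 209 in the outflow tract and 181 in the anterior library, from 170, 258, 41 and 46 counts. At E9.5 it stood at 48.4 CPM in the posterior, 77.4 in the middle and 57.9 in the anterior library. The posterior library was thus the lowest at both stages, and the E10.5 middle, outflow tract and anterior libraries exceeded every E9.5 library. In the order of levels the outflow tract and anterior libraries at E10.5 had overlapping intervals (150 to 283 and 133 to 242 CPM), whereas the E10.5 middle library (111 to 143) and the E9.5 middle library (64.4 to 92.3) did not overlap.

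Sema3c (chromosome 5, 17574281 to 17730268) varied less between libraries except for the outflow tract. It stood at 20.9 CPM in the posterior, 20.6 in the middle, 56.0 in the outflow tract and 27.6 in the anterior library at E10.5, and at 16.8, 29.4 and 23.1 CPM in the posterior, middle and anterior libraries at E9.5. The outflow tract value rests on 11 counts in 6 of 31 cells (27.9 to 100 CPM). Sema3a (chromosome 5, 13125414 to 13602565), a repellent for axons, stood at 19.7, 7.35, 5.09 and 31.5 CPM in the E10.5 posterior, middle, outflow tract and anterior libraries, and at 11, 11.9 and 6.94 CPM in the E9.5 posterior, middle and anterior libraries. Its anterior values rest on 8 and 9 counts, and the outflow tract value on 1.

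The neuropilins did not follow each other. Nrp1 (chromosome 8, 128358604 to 128503363), which also binds VEGF-A, stood at 48.1, 40.7, 30.5 and 43.3 CPM in the E10.5 posterior, middle, outflow tract and anterior libraries. At E9.5 it stood at 41.0 CPM in the posterior library but at 16.2 in the middle and 17.0 in the anterior one. Nrp2 (chromosome 1, 62703285 to 62818695) was instead highest in the anterior libraries. It stood at 30.4, 20.1, 15.3 and 55.1 CPM in the E10.5 posterior, middle, outflow tract and anterior libraries, and at 15, 16.2 and 33.2 CPM in the E9.5 posterior, middle and anterior ones. A single E9.5 anterior cell held 17 of that library's 43 Nrp2 counts.

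Plxna2 (chromosome 1, 194618218 to 194816869) was the plexin with the most counts and had a posterior bias. It stood at 41.8 CPM in the posterior library, 12.7 in the middle and 7.88 (2 counts) in the anterior library at E10.5, with 0 counts in the outflow tract, whose interval reached 18.8 CPM (3 counts would be 15.3 CPM). At E9.5 it stood at 25.0 CPM in the posterior, 23.7 in the middle and 8.49 in the anterior library. Both anterior libraries therefore lay below the posterior one of their stage. Plxna4 (chromosome 6, 32144268 to 32588192), a Sema3a receptor of neurons, had 11 counts in the E10.5 posterior library and none in the other E10.5 libraries, and 3.81, 2.50 and 13.1 CPM in the E9.5 posterior, middle and anterior libraries, where 1 anterior cell held 7 of 17 counts. Plxnd1 (chromosome 6, 115954811 to 115995005), the plexin of blood vessels, had 12, 1, 1 and 0 counts in the E10.5 posterior, middle, outflow tract and anterior libraries and 59, 1 and 6 in the E9.5 posterior, middle and anterior ones. Cxcr4 (chromosome 1, 128588199 to 128592293) was the sparsest, with 3, 6, 0 and 0 counts in the E10.5 libraries in the same order and 7, 12 and 11 at E9.5, where its level was 0.513 CPM in the posterior, 7.50 in the middle and 8.49 in the anterior library.

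**Figure D1:**
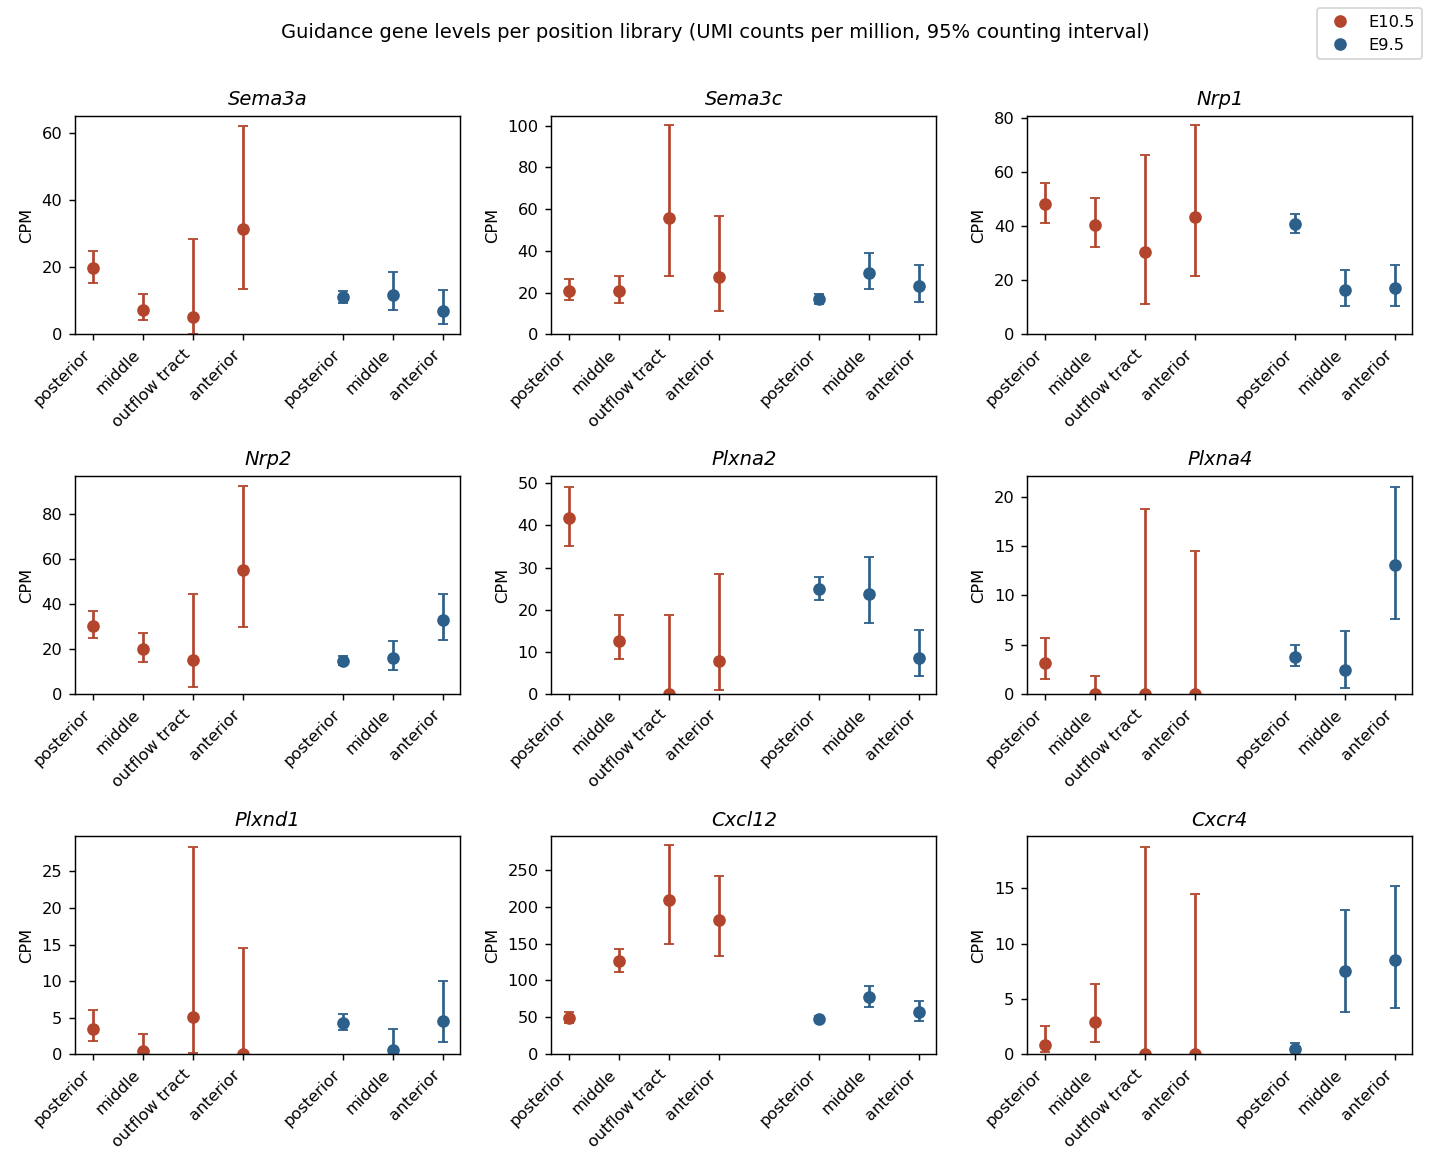
Level of each of the 9 genes (CPM, linear axis from 0) in the 7 position libraries, with 95% counting intervals; E10.5 libraries are at the left in red and E9.5 libraries at the right in blue. Cxcl12 was lowest in the posterior libraries (49.3 and 48.4 CPM), and Plxna2 was higher in the posterior than in the anterior library at both stages.

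Position was tested across the 6 libraries dissected at both stages, with the stage samples as replicates (edgeR quasi-likelihood, 9825 genes). None of the members was called at an adjusted p of 0.05. For posterior against anterior, 0 of the 7 members that passed the low-count filter were called, against 0.295% of all genes; for posterior against middle it was 0 of 7 against 0.193%, and for middle against anterior 0 of 7 against 0.0%. Plxna4 and Plxnd1 were removed by the filter. At an unadjusted p under 0.05, 4 members and 594 genes passed for posterior against anterior, 2 members and 378 genes for posterior against middle, and 1 member and 345 genes for middle against anterior. DESeq2 called 45, 33 and 4 genes in these comparisons, none of them a member.

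The fitted folds follow the levels above. Plxna2 had a posterior minus anterior log2 fold of 1.85 ± 0.54 (SE, 6 libraries, edgeR adjusted p = 0.460). Nrp2 had −1.09 ± 0.34 (adjusted p = 0.488), Cxcl12 −1.09 ± 0.36 (adjusted p = 0.589) and Cxcr4 −3.24 ± 1.14 (adjusted p = 0.662). Nrp1 (0.72 ± 0.40), Sema3c (−0.49 ± 0.38) and Sema3a (−0.02 ± 0.63) lay within 2 SE of 0. For posterior minus middle the folds furthest from 0 in SE units were those of Cxcl12 (−1.04 ± 0.34) and Cxcr4 (−3.12 ± 1.01), both at adjusted p = 0.794, and for middle minus anterior that of Nrp2 (−1.27 ± 0.36, adjusted p = 1.00). The other 5 members lay between −0.49 (Sema3c) and 0.78 (Plxna2) for posterior minus middle, and Plxna2 ran there from 0.097 without the E10.5 posterior library to 1.52 without the E9.5 posterior one. The Cxcl12 fold for posterior minus middle ran from −1.65 to −0.53 with a library left out, nearest to 0 without the E10.5 posterior library (edgeR adjusted p = 0.964). For middle minus anterior Plxna2 had 1.07 ± 0.57 (edgeR adjusted p = 1.00), within 2 SE of 0. The Cxcl12 fold depended on single libraries: posterior minus anterior was −1.70 without the E9.5 posterior library (adjusted p = 0.00197), −1.74 without the E9.5 anterior one (0.0145), but −0.51 without the E10.5 anterior one (0.953) and −0.54 without the E10.5 posterior one (0.651). Left without a partner, a library is assumed to vary like the others. Plxna2 had 2.79 without the E9.5 posterior library (adjusted p = 0.00899) but 1.38 without the E10.5 posterior one (0.253). Nrp1 had 1.23 without the E10.5 posterior library (0.0495) but 0.034 without the E9.5 posterior one (0.984).

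**Figure D2:**
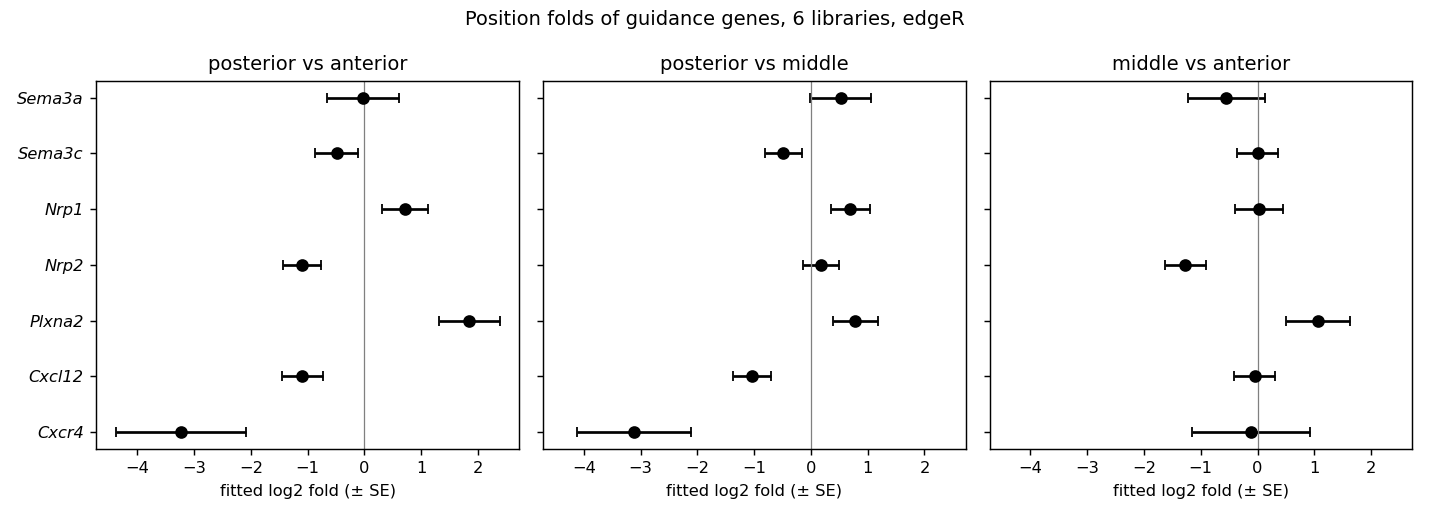
Fitted log2 folds between positions (x axis, ± SE, edgeR on 6 libraries) of the 7 genes that passed the low-count filter (y axis). Plxna2 lies at 1.85 and Cxcl12 and Nrp2 at −1.09 for posterior against anterior; none passed the test over all genes.

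Within a stage, 2 libraries can be set against each other only by their counting error. The posterior over anterior log2 fold of Plxna2 was 2.41 (0.53 to 5.47) at E10.5 and 1.56 (0.70 to 2.57) at E9.5, so both intervals lay above 0. With cells thinned to 4500 UMIs each the E9.5 interval included 0 (2.32, −0.24 to 7.66). Among all genes with at least 10 counts, intervals for posterior over anterior lay above 0 for 8.54% and below for 7.64% at E10.5, and above for 14.4% at E9.5, where 1346 of 12847 genes lay below. Nrp1 also lay above 0 there at E9.5 (1.27, 0.66 to 1.96), while Nrp2 (−1.14, −1.62 to −0.63), Plxna4 (−1.78, −2.60 to −0.90) and Cxcr4 (−4.05, −5.65 to −2.55, on 7 against 11 counts) lay below.

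Cxcl12 lay below 0 for posterior over middle at both stages, with −1.36 (−1.65 to −1.07) at E10.5 and −0.68 (−0.96 to −0.39) at E9.5. There 24.6% of genes lay above 0 and 12.2% below at E10.5, and 9.79% above and 7.96% below at E9.5. For posterior over anterior Cxcl12 had −1.88 (−2.36 to −1.38) at E10.5 but −0.26 (−0.60 to 0.11) at E9.5, so only the E10.5 interval was clear of 0. Plxnd1 lay above 0 for posterior over middle at both stages, on 12 against 1 counts at E10.5 and 59 against 1 at E9.5. At E10.5 Sema3a (1.42, 0.60 to 2.34), Nrp2 (0.60, 0.07 to 1.16) and Plxna2 (1.71, 1.10 to 2.38) lay above 0 for posterior over middle as well. Plxna4, with 11 against 0 counts, was at least 2.17-fold higher there (a plain fold, not a log2 fold). In the E9.5 pair Nrp1 lay above 0 (1.34, 0.77 to 1.96), and Sema3c (−0.81, −1.26 to −0.32) and Cxcr4 (−3.87, −5.45 to −2.41, on 7 against 12 counts) lay below.

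Nrp2 lay below 0 for middle over anterior at both stages, with −1.46 (−2.36 to −0.47) at E10.5 and −1.03 (−1.79 to −0.30) at E9.5. There 3.63% of genes lay above 0 and 4.65% below at E10.5, and 11.3% above and 8.9% below at E9.5. Without epithelium-like and cardiomyocyte-like cells the E9.5 value was 0.24 (−0.95 to 1.60), on the other side of 0. Sema3a (−2.10, −3.43 to −0.65, on 15 against 8 counts) and Cxcl12 (−0.52, −0.98 to −0.03) also lay below 0 for middle over anterior at E10.5. At E9.5 Plxna4 lay below (−2.39, −4.42 to −0.78, on 4 against 17 counts) and Plxna2 above (1.48, 0.49 to 2.60). The median log2 fold of all genes (5 CPM added) was itself 0.24 for posterior over anterior and 0.17 for posterior over middle at E10.5, and within 0.1 of 0 for the other position pairs above.

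Markers of other cells moved with position too. At E10.5 the 6 cushion mesenchyme markers together stood at 167, 240, 407 and 492 CPM in the posterior, middle, outflow tract and anterior libraries. At E9.5 they stood at 131, 65.0 and 72.5 CPM in the posterior, middle and anterior ones. Twist1 alone made up 56.0, 110, 285 and 343 CPM of the E10.5 sums, in the same order. There Tbx20 stood at 3.48, 0.490, 0 and 0 CPM, Postn at 5.80, 2.94, 0 and 3.94, and Snai2 at 32.5, 14.7, 0 and 31.5. Sox9 stood at 28.4, 39.7, 81.4 and 47.3 CPM and Col1a1 at 41.2, 72.0, 40.7 and 67.0. Hepatoblast markers (5 genes) stood at 338 CPM in the E10.5 posterior library and at 4.41, 0 and 0 CPM in the middle, outflow tract and anterior ones. The 4 smooth muscle markers stood at 85.3, 338, 137 and 961 CPM in the E10.5 posterior, middle, outflow tract and anterior libraries. At E9.5 they stood at 563, 81.2 and 360 CPM in the posterior, middle and anterior ones. Acta2 and Tagln gave most of each sum, and Myh11 had at most 5 counts in any library. Acta2, Tagln and Cnn1 were also at least 2-fold up in the cardiomyocyte-like cluster described below. Cardiomyocyte markers stood at 241, 39.7, 61.0 and 15.8 CPM at E10.5 and at 2264, 280 and 674 CPM at E9.5, and somite markers (5 genes) at 11.3, 31.4, 50.9 and 161 CPM at E10.5 and at 19.1, 35.6 and 6.94 CPM at E9.5, in the same order. The part of such cells in the position values was not tested.

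The outflow tract library, measured once, had a Cxcl12 level near that of the anterior library and fewer Nrp2 counts. Of the 4 members with at least 10 counts in these libraries together, only Nrp2 had an interval clear of 0, at −1.85 (−4.29 to −0.01) on 3 against 14 counts; 5.0% of genes lay below 0 and 5.51% above. That call was lost when the deepest cell of each library was left out (−1.84, −4.28 to 0.01). Sema3c had 1.02 (−0.48 to 2.63), Cxcl12 0.20 (−0.44 to 0.84) and Nrp1 −0.51 (−2.22 to 1.05). Against the middle library Sema3c (1.44, 0.34 to 2.43) and Cxcl12 (0.72, 0.21 to 1.20) lay above 0, as did 4.84% of genes, with 2.4% below. Against the posterior library both did again, with 1.42 (0.36 to 2.35) and 2.08 (1.55 to 2.58), as did 5.0% of genes, and Plxna2 with 0 against 144 counts was at least 2.74-fold lower, where 3.96% of genes lay below 0. The Sema3c values rested on few cells. Without the deepest cell of each library they were 1.27 (−0.16 to 2.48) against the middle and 0.83 (−0.53 to 1.95) against the posterior library, and without epithelium-like and cardiomyocyte-like cells 0.31 (−2.84 to 2.38) and −0.25 (−3.34 to 1.69). Cxcl12 stayed above 0 against both libraries under these 2 settings. The median log2 fold of all genes was −0.14 for outflow tract over posterior.

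Between stages, no member had an interval clear of 0 in 1 direction at all 3 positions: 0 of the 7 members with at least 10 counts at each position, against 6.86% of such genes that were higher and 6.41% that were lower at E10.5 throughout. The E10.5 over E9.5 log2 fold of Cxcl12 was 0.03 (−0.23 to 0.27) in posterior, 0.71 (0.39 to 1.03) in middle and 1.65 (1.08 to 2.19) in anterior cells. Nrp1 had 0.23 (−0.03 to 0.48), 1.32 (0.67 to 2.02) and 1.35 (0.16 to 2.46) in the same order. Cxcl12 and Nrp1 thus stood clear of 0 in the middle and anterior libraries and not in the posterior one. Sema3a lay above 0 in posterior (0.84, 0.41 to 1.27) and anterior cells (2.18, 0.61 to 3.73), and Nrp2 in posterior cells (1.02, 0.67 to 1.37) but not in middle or anterior ones. Plxna2 lay above 0 in posterior cells (0.74, 0.45 to 1.03) and below 0 in middle cells (−0.90, −1.68 to −0.14). Sema3c had 0.32, −0.51 and 0.25 in posterior, middle and anterior cells, and its intervals, like those of Plxna4, Plxnd1 and Cxcr4, included 0 at each position. Per position, intervals lay above 0 for 26.7%, 17.5% and 13.8% of genes in posterior, middle and anterior cells, and below 0 for 23.2%, 24.7% and 12.2%. After thinning, Cxcl12 had 0.27 (−0.29 to 0.87) in middle and 0.64 (−0.31 to 1.61) in anterior cells, and Nrp1 1.21 (−0.10 to 2.88) and 0.70 (−1.28 to 2.75), so none of the 4 was clear of 0. Without epithelium-like and cardiomyocyte-like cells the Cxcl12 fold in middle cells was −0.0073. With 1 sample a stage, stage cannot be told apart from depth or from anything else that differed between the samples.

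Levels also differed between groups of cells within a library. Clustering of all 1500 cells, made without the 9 genes, gave 10 clusters, and clusters 0 (114 E9.5 cells) and 6 (60 E10.5 cells) were epithelium-like by Epcam, Cdh1, Krt8, Cldn6, Foxa1 and Shh. Such cells made up 7.32% of the posterior, 4.23% of the middle, 16.1% of the outflow tract and 0.0% of the anterior library at E10.5, and 12.9%, 34.4% and 72.2% of the posterior, middle and anterior libraries at E9.5. Within each of the 6 libraries that held both groups, the epithelium-like cells were set against the other cells.

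Sema3c was higher in epithelium-like cells in 5 of 6 libraries and lower in the sixth, by intervals clear of 0. At E10.5 it stood at 86.3 CPM in epithelium-like against 14.6 CPM in other cells of the posterior library, at 104.6 against 9.94 in the middle and at 259 against 12.4 in the outflow tract. At E9.5 it stood at 45.3 against 13.1 CPM in the posterior and at 45.3 against 16.0 in the middle library. In the outflow tract library, 9 of the 11 Sema3c counts came from 5 epithelium-like cells, all of which had a Sema3c UMI, against 1 of 26 other cells. The E9.5 anterior library went the other way, with 13.1 CPM in 39 epithelium-like and 46.9 CPM in 15 other cells (log2 fold −1.84, −3.02 to −0.70). Without the epithelium-like and cardiomyocyte-like cells the outflow tract over anterior fold of Sema3c was −1.16 (−4.46 to 1.24), on 2 against 7 counts.

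The chemokine pair was split between the groups. Cxcl12 was lower in epithelium-like cells in 6 of 6 libraries. It stood at 13.3 against 52.7 CPM in other cells of the E10.5 posterior library, 17.4 against 140 in the E10.5 middle, 28.8 against 247 in the E10.5 outflow tract, 3.88 against 54.1 in the E9.5 posterior, 1.37 against 141 in the E9.5 middle and 40.5 against 99.1 in the E9.5 anterior library. Cxcr4 was higher in epithelium-like cells in 4 of 6 libraries, and its counts were few: 3 against 0 in the E10.5 posterior, 3 against 3 in the E10.5 middle, 7 against 0 in the E9.5 posterior and 12 against 0 in the E9.5 middle library. The E9.5 anterior library was not among the 4. Its 7 against 4 counts stood for 7.67 CPM in 39 epithelium-like and 10.4 CPM in 15 other cells. The E10.5 outflow tract library had no Cxcr4 count. In all, 26 of 30 E9.5 Cxcr4 counts and 6 of 9 at E10.5 lay in epithelium-like cells. With 3 counts in place of 0, Cxcr4 was at least 18.3-fold higher in epithelium-like cells of the E9.5 posterior library and at least 4.80-fold higher in those of the E9.5 middle library. Over all genes with at least 10 counts, 0.82% were higher in at least 5 libraries, 1.85% in at least 4, and 0.0879% lower in all 6; the clusters were formed from 2000 variable genes other than the 9, so part of these genes took part in forming them.

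For the remaining receptors and Sema3a, the intervals that were clear of 0 all lay on the other side, though many included 0. Sema3a, Nrp1, Nrp2 and Plxna2 were each lower in epithelium-like cells in 3 of 6 libraries and higher in none, where 3.83% of genes were lower in at least 3. Nrp1 stood at 12.9 against 44.6 CPM in the E9.5 posterior, 2.75 against 27.5 in the E9.5 middle and 4.36 against 45.3 in the E10.5 middle library. Plxna2 stood at 16.6 against 44.2 CPM in the E10.5 posterior, 9.05 against 27.0 in the E9.5 posterior and 9.61 against 35.5 in the E9.5 middle library. Some point values went the other way, with intervals that included 0. In the E9.5 anterior library Nrp1 stood at 20.8 against 7.82 CPM and Plxna2 at 9.86 against 5.22. Sema3a stood at 17.4 against 6.07 CPM in the E10.5 middle and Nrp2 at 36.5 against 29.9 in the E10.5 posterior library. Plxna4 was lower in 2 libraries and Plxnd1 in none. These numbers of libraries were the same when cells were clustered at resolution 1.0 in place of 0.6.

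**Figure D3:**
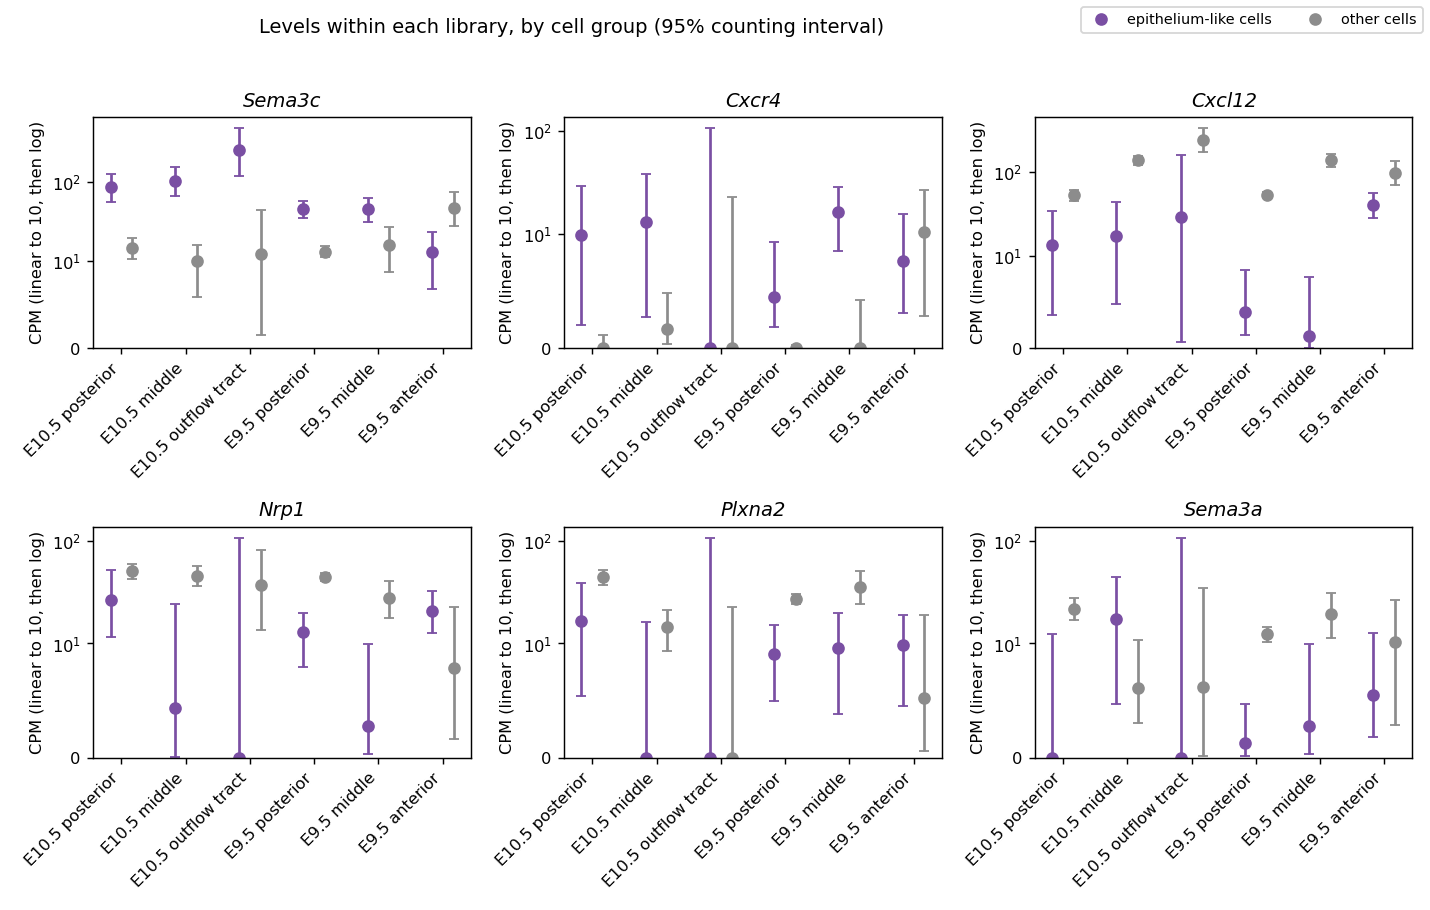
Level (CPM; linear up to 10, then logarithmic) of 6 of the genes in epithelium-like (purple) and other (grey) cells of the 6 libraries that held both, with 95% counting intervals. Sema3c lay higher in epithelium-like cells except in the E9.5 anterior library, and Cxcl12 lay lower in all 6.

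Epithelium-like cells were not alike across positions. Within the E9.5 cluster, Sema3c stood at 45.3 CPM in posterior, 45.3 in middle and 13.1 in anterior cells, while Cxcl12 stood at 3.88, 1.37 and 40.5 CPM and Nrp2 at 5.82, 1.37 and 32.9 CPM in the same order. At resolution 1.0 the cluster divided into 57 mostly posterior cells led by Ttr, Cldn6 and Shh, with 44.0 CPM of Sema3c, and 57 mostly anterior and middle cells led by the pharyngeal genes Pax9, Pax1 and Foxe1, with 27.5 CPM.

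Among the other clusters, the ligands and receptors had different highest points. The mesothelium-like cluster of 92 E9.5 cells (Wt1, Tbx18, Upk3b) had Nrp1 at 97.4 CPM, Cxcl12 at 138 CPM and Plxna2 at 42.4 CPM. The cardiomyocyte-like cluster of 33 cells had the highest Sema3a (31.5 CPM) and Plxna4 (18.1 CPM). Cxcl12 peaked at 166 CPM in cluster 5, unnamed E10.5 cells led by Crym, Tagln and Twist1, which held 43 of the 45 anterior and 21 of the 31 outflow tract cells. Within that cluster Cxcl12 stood at 100 CPM in 26 posterior, 181 in 74 middle, 202 in 21 outflow tract and 170 in 43 anterior cells, with the posterior interval (59.3 to 158) overlapping that of the middle cells (143 to 225). Sema3c had 0 counts in the 21 outflow tract cells of the cluster and 7 in its 43 anterior cells. At resolution 1.0 a cluster of 17 endothelium-like cells (Cdh5, Cldn5, Emcn) held 37 of the 80 Plxnd1 counts of the series, at 90.9 CPM, with Nrp1 at 108 and Nrp2 at 83.5 CPM and 0 counts of Cxcr4.

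**Figure D4:**
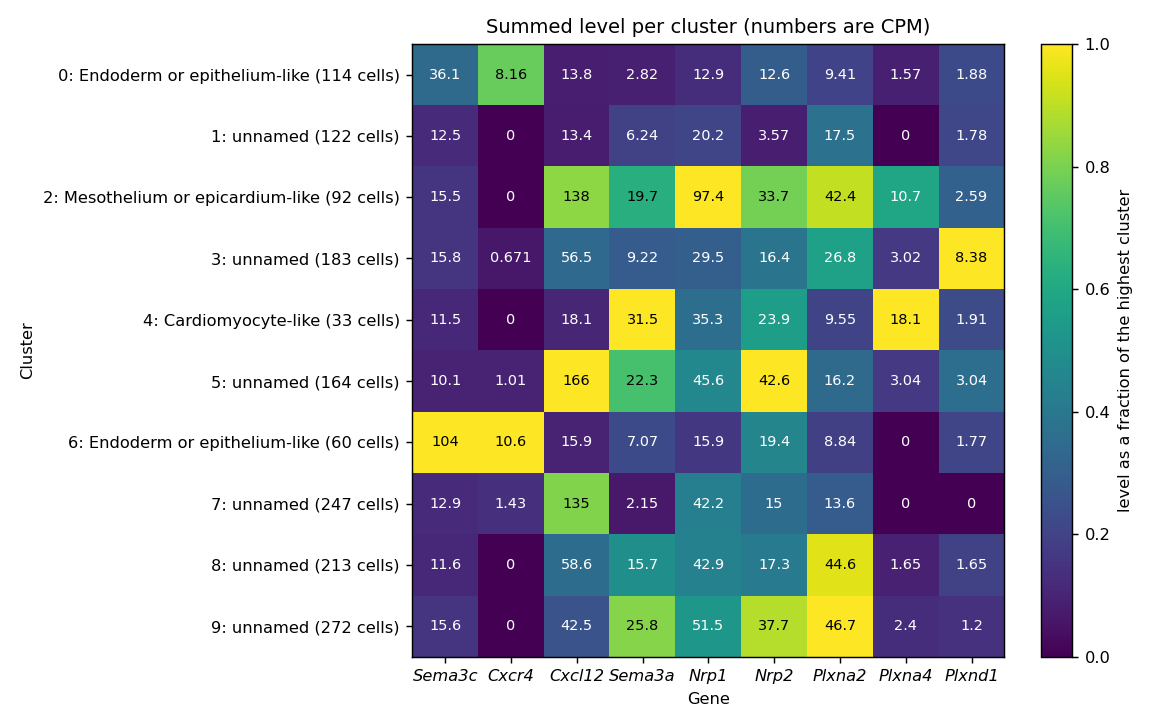
Summed level of each gene (columns) in the 10 clusters (rows, with cell numbers); printed numbers are CPM and colour gives the level as a fraction of that gene's highest cluster. Sema3c and Cxcr4 are highest in the epithelium-like cluster 6 (104 and 10.6 CPM), where Cxcl12 stands at 15.9 CPM. The Cxcr4 value there rests on 3 counts in posterior and 3 in middle cells.

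Ligand against receptor was compared as a ratio of summed counts, read across libraries only, since UMI counts of different genes have no common scale. Sema3a plus Sema3c over Nrp1 plus Nrp2 was 0.517 in the posterior, 0.460 in the middle, 1.33 in the outflow tract and 0.6 in the anterior library at E10.5, and 0.495, 1.27 and 0.6 in the posterior, middle and anterior libraries at E9.5. The E9.5 middle library (0.869 to 1.86) stood apart from the posterior one (0.437 to 0.561), and the outflow tract interval (0.516 to 3.58) overlapped all the others. Over the 3 plexins the same ligands had ratios of 0.838, 2.11, 12 and 7.50 in the E10.5 posterior, middle, outflow tract and anterior libraries, the outflow tract value resting on 1 plexin count and the anterior value on 2, and of 0.838, 1.53 and 1.15 in the E9.5 posterior, middle and anterior libraries. As a point value over these 3 plexins, the ratio was thus lowest in the posterior library at both stages. The A-type plexins Plxna1 and Plxna3 were not counted in it. They had 159 and 64 counts in the E9.5 posterior, 34 and 13 in the middle and 25 and 9 in the anterior library.

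Cxcl12 over Cxcr4 was 56.7 in the posterior and 43.0 in the middle library at E10.5, and with no Cxcr4 count at least 13.7 in the outflow tract and 15.3 in the anterior library (3 counts in place of 0). At E9.5 it was 94.4 in the posterior (45.6 to 236), 10.3 in the middle (5.71 to 20.5) and 6.82 in the anterior library (3.60 to 14.2). The libraries with more epithelium-like cells had the lower ratios at E9.5. The part of cell makeup in this was not tested.

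**Figure D5:**
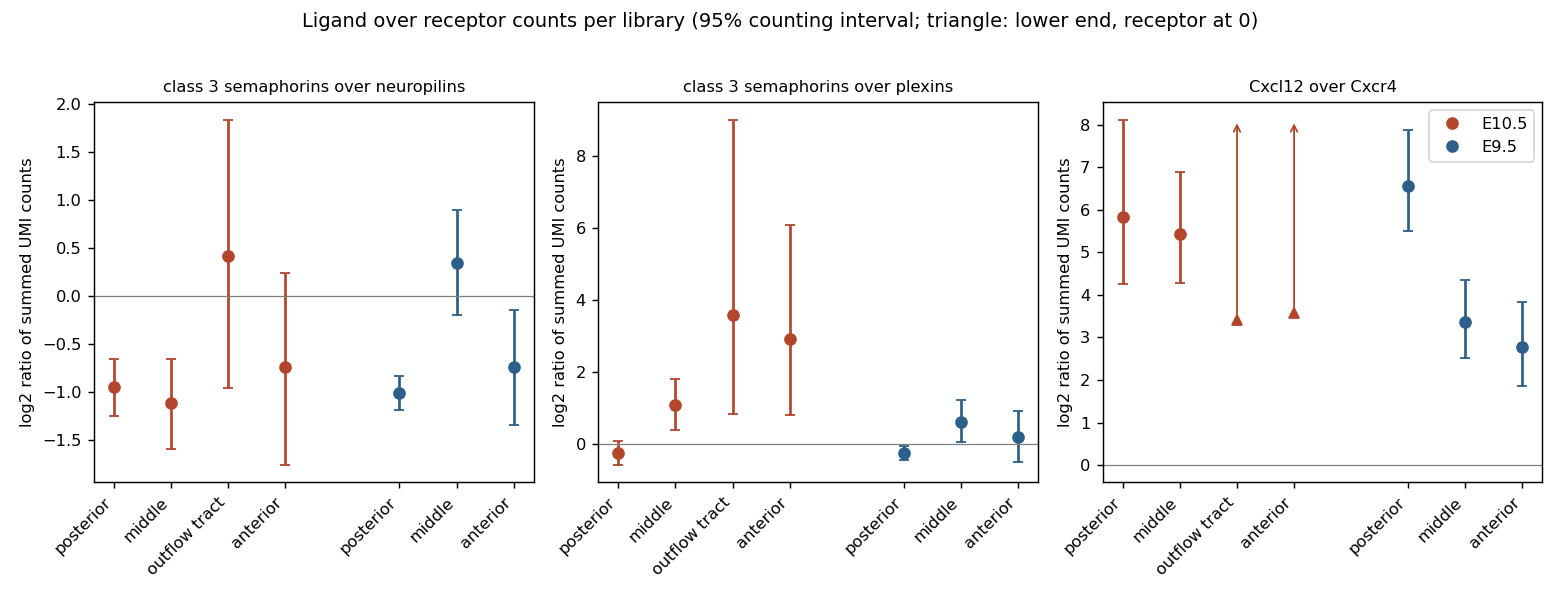
Log2 ratio of summed ligand over receptor counts (y axis) in the 7 libraries (x axis; E10.5 red, E9.5 blue) with 95% counting intervals; triangles with arrows mark lower ends where the receptor had no count. For Cxcl12 over Cxcr4 the E9.5 middle and anterior libraries lie below the E9.5 posterior one (ratios of 10.3 and 6.82, against 94.4).

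In single cells, thinned to 4500 UMIs each so that depths match, at least 1 of the 3 ligands and 1 of the 6 receptors were seen together in 13.2% of posterior, 9.97% of middle, 3.23% of outflow tract and 7.50% of anterior cells at E10.5, and in 6.34%, 9.84% and 9.26% of posterior, middle and anterior cells at E9.5. Before thinning these shares were 19.3%, 16.6%, 16.1% and 17.8% at E10.5 and 54.3%, 62.3% and 42.6% at E9.5. Cells with a ligand alone were most common in the outflow tract, 18 of 31 thinned cells, against 17 of 40 in the E10.5 anterior library. Before thinning the 2 libraries were closer, with 16 of 31 and 22 of 45 cells. Cxcl12 and Cxcr4 were seen together, unthinned, in 1 of 967 E10.5 cells and 5 of 533 E9.5 cells, where their separate shares alone would give 2.64 and 10.7 cells. Sema3a and Sema3c were seen together, also unthinned, in 0 of 560 E10.5 posterior cells. Of these cells 56 held the first and 55 the second, which would give 5.5 by the shares alone. In the E9.5 posterior library it was 23 cells where the shares give 28.3. Other libraries went either way, with 2 cells where the shares give 0.982 in the E10.5 middle, 3 against 4.13 in the E9.5 middle and 5 against 2.33 in the E9.5 anterior library. Unthinned, Nrp1 and Nrp2 were seen together in 71 E9.5 posterior cells where the shares give 47.6, and Nrp1 and Plxna2 in 108 where they give 91.8. Cells of that library held 964 to 105157 UMIs, and the part of depth was not tested. Thinned, these pairs were seen in 4 cells against 2.74 and in 6 against 4.48. Over all thinned E10.5 cells it was 14 against 16.5 and 12 against 13.4.

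Genes with the most similar pattern over the 7 libraries were, for Sema3c, Dtwd1 (Pearson r = 0.988 of log2 CPM with 5 added) and Coa4 (0.971), for Nrp1, Rdh14 (0.966) and Prkar2a (0.957), for Nrp2, Magi3 (0.963) and R3hcc1 (0.956), for Plxna2, Arih1 (0.988) and Pofut1 (0.968), and for Cxcl12, Rab2a (0.980) and Ublcp1 (0.979). They were the highest of 8001 candidate genes over only 7 points, which share stage samples and depth. Among the members, the library levels of Sema3c and Cxcl12 ran together (r = 0.722), and Plxna2 ran against Cxcl12 (−0.795) and Sema3c (−0.784). The outflow tract library, 1 of the 7 points, had 11 Sema3c and 0 Plxna2 counts. Within it the 2 ligands lay in opposite cell groups. Sema3c stood at 259 CPM in epithelium-like and 12.4 in other cells, and Cxcl12 at 28.8 and 247. Sema3a, Plxna4, Plxnd1 and Cxcr4 had too few counts.

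A wider list of semaphorins, plexins and their signal transducers, chemokines, Slit, netrin and ephrin guidance genes and VEGF receptors put the 9 genes in context. Of its 94 genes 93 were in both matrices and 59 passed the filter. None passed the edgeR position test at an adjusted p of 0.05. At an unadjusted p under 0.05, which 594, 378 and 345 of all 9825 genes reached in these comparisons, there were 7 higher and 5 lower for posterior against anterior, 2 and 4 for posterior against middle, and 3 and 5 for middle against anterior; DESeq2 called 1 higher and 1 lower in the first of these and none in the others. For posterior against anterior 31 lay above and 28 below 0, with a median log2 fold of 0.07 against 0.02 over all genes. For posterior against middle 42 lay above and 17 below 0, with a median of 0.31 against 0.04, and for middle against anterior 25 lay above and 34 below 0, with a median of −0.12 against −0.01. Between stages, 4 of the 50 list genes with enough counts were higher at E10.5 at all 3 positions, where 6.86% of all genes were, and none lower, against 6.41%. The share that was higher is near that of all genes. They were Rnd3 and Rras, small GTPases of the plexin pathway, Crmp1, a semaphorin signal mediator, and the ephrin receptor Epha3. Rnd3 stood at 46.1, 102 and 150 CPM in E10.5 posterior, middle and anterior cells, against 22.3, 40.6 and 46.3 CPM in the matching E9.5 cells, and Epha3 at 16.2, 12.2 and 19.7 CPM against 1.91, 2.50 and 0.771 CPM. Ackr3, the scavenging receptor of Cxcl12 and named here after its values were seen, stood at 24.4, 15.2, 5.09 and 7.88 CPM in the E10.5 posterior, middle, outflow tract and anterior libraries and at 16.3, 23.1 and 6.94 CPM in the E9.5 posterior, middle and anterior ones, and its posterior minus anterior fold was 1.36 ± 0.52 (edgeR adjusted p = 0.711).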

How the data were processed

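Cells of wild-type second heart field were captured on the 10x Chromium platform. Cell Ranger 3.0, Seurat and mm10 are named, per the submitters' processing notes; the annotation and the cell filters are not given in the sources used here. What the authors deposited is a table of UMI counts, whole numbers and unnormalised, for genes by cells, and per the labels the barcode suffix marks the dissected position. No cell was left out.

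For the position test, UMIs were added up by library, and the 6 libraries that have a counterpart at the other stage entered 1 edgeR model (4.0.16, under R 4.3.3; TMM, filterByExpr, glmQLFit, glmQLFTest) with stage as a block and position as the term, leaving 2 residual degrees of freedom (common biological coefficient of variation 0.217). Calls used a Benjamini-Hochberg adjusted p under 0.05 over 9825 genes. Replicate libraries come from 1 sample a stage, so p-values measure only the spread between these. On simulated counts for posterior against anterior (9515 genes), the fit recovered 16 of 79 genes given a log2 change of 1, 34 of 55 given 2 and 53 of 58 given 3, with 2 false calls among 105.

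Elsewhere there was 1 library a group: CPM on totals of the 16388 shared genes, exact Poisson intervals, and exact conditional (Clopper-Pearson) intervals of folds and ratios, 95%. Against 0 counts a fold is a bound with 3 counts. Cells were clustered in scanpy 1.11.5 (2000 variable genes without the 9 genes, Osr1, mitochondrial and haemoglobin genes; 20 components; 15 neighbours; Leiden 0.6). A cluster took the name of the list with most genes among its 10 leading genes (by fold, in at least 10% of its cells), if 3 or more of that list's genes were at least 2-fold up; the lists for second heart field, outflow tract, cushion and foregut mesenchyme gave no names, and haemoglobin genes alone gave no erythroid name. Scrublet marked 57.4% to 97.8% of cells in the 3 smallest libraries, so its marks there were not used, a choice made after seeing them; in the other libraries 14 cells were marked, and 1 alternative left them out.

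The members and gene lists were chosen with earlier results of these data known. All members are reported, and those not named in a comparison within a stage had intervals that included 0 or too few counts; other guidance genes are named where they passed the position test or where, with at least 50 counts, they differed at least 2-fold with intervals clear of 0 (between stages in 1 direction at all 3 positions), and the 2 most similar genes by Pearson r are named for members with at least 10 counts in at least 5 libraries. The contrast of epithelium-like with other cells, the outflow tract against middle and posterior cells, levels within clusters and the minimum of 10 counts were chosen after values were seen. Alternatives were DESeq2 1.42.0, limma 3.58.1 on log2(CPM + 5), other size factors, no low-count filter, no block, libraries left out in turn, cell groups left out, cells thinned to 4500 UMIs, and clustering at resolution 1.0.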

Additional observations from a re-analysis of the deposited data

Results flagged for a closer look

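Plxna2 moved in opposite directions between stages at different positions. Its E10.5 over E9.5 log2 fold was 0.74 (0.45 to 1.03) in the posterior libraries and −0.90 (−1.68 to −0.14) in the middle libraries, a gap of 1.64, with 1 library behind each value. With cells thinned to 4500 UMIs the fold in the middle libraries was −0.59 (−1.97 to 1.02). The difference was not tested.

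Sema3c was lower in epithelium-like than in other cells of the E9.5 anterior library, with a log2 fold of −1.84 (−3.02 to −0.70), whereas the other 5 libraries with epithelium-like cells had it higher, by 1.5 to 4.39. The 15 other cells of that library carried 18 Sema3c counts and its 39 epithelium-like cells 12. The difference was not tested.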

How the results depend on the processing

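Genes called for posterior against anterior (29) were 45 with DESeq2, 12 with limma, 260 with no low-count filter, 0 without the replicate block (no stage term), and 95 to 332 with a library left out, when the lone library of a position is assumed to vary like the others. For posterior against middle (19) these were 33, 3, 178, 0 and 37 to 231, and 31 with thinned cells; for middle against anterior (0) they were 4 with DESeq2, 64 with no filter, 5 without epithelium-like and cardiomyocyte-like cells (the named cells), 2 with thinned cells and 14 to 123 with a library left out. Without the filter Plxna2 (adjusted p = 0.0127) and Cxcl12 (0.0399) passed for posterior against anterior, and Cxcl12 (0.0147) for posterior against middle, where it also passed with thinned cells (0.0443) and without the E9.5 posterior (0.0013), E9.5 anterior (0.0140) or E10.5 anterior library (0.0137), but not without the E10.5 posterior (−0.53, 0.964) or either middle one (1.00); Nrp1 passed there at 1.28 without the E10.5 posterior one (0.0415), and was 0.12 at its lowest. Of 309 alternative member folds 260 kept direction and side of the threshold, 12 passed it and 37 turned sign, none of them called. Sema3a posterior minus anterior turned to 0.072 with no filter and 0.31 thinned (−1.02 to 0.85 with a library left out), Cxcr4 ran from −3.88 to 4.11 with a library left out. For posterior minus middle, Nrp2 was −0.25 and Sema3c 0.12 without the named cells, and with a library left out Nrp2 ran from −0.078 to 0.41 and Sema3a from −0.34 to 1.5. For middle minus anterior, Cxcr4 was 0.10 (DESeq2) and 0.28 (limma), Nrp1 −0.0403 and −0.065, Cxcl12 0.045 (no filter), 0.12 (without the named cells) and 0.36 (thinned), and Sema3c −0.0087 (DESeq2 size factors), −0.019 (DESeq2), −0.031 (limma), −0.016 (no block), −1.36 (without the named cells), −0.0505 (without the deepest cells) and −0.55 (thinned); with a library left out Cxcr4 ran from −0.54 to 7.17, Sema3a from −1.58 to 0.31, Sema3c from −0.37 to 0.31, Cxcl12 from −0.65 to 0.61 and Nrp1 from −0.41 to 0.42. Outflow tract members clear of 0 (1) were 2 with thinned cells and 0 without the deepest cells or without the named cells, the stage fold of Cxcl12 in middle cells was −0.0073 without the named cells, and the log2 ratio of semaphorins over neuropilins in the E10.5 middle library was −1.69 as a mean over cells, against −1.12. Of 63 shares of cells with a UMI, 32 moved beyond their interval on thinning. Why these values moved was not tested. Depth limits the outflow tract and E10.5 anterior libraries most, where 3 counts stand for 15.3 and 11.8 CPM.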
